A study of Homo sapiens with 12 samples.

Results

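I-BRD9 was compared with DMSO in 2102 EP, a human embryonal carcinoma cell line labelled wild type, with 3 libraries per group that the labels call biological replicates. These 6 libraries were chosen by their labels from the 12 of the series. The other 6 hold the same treatments of TCam-2, a seminoma cell line, and served to estimate the spread and to set the lines side by side. Treated cells received I-BRD9 at 15 µM for 24 h and control cells received the solvent DMSO for the same time; 2102 EP grew in DMEM and TCam-2 in RPMI, so line and medium cannot be told apart. The embryonal carcinoma side of the study rests on this line alone. Of 63241 genes in the deposited table, 15614 had enough counts to be tested. The series' title names BRD9 inhibition as a treatment option for testicular germ cell tumours, and the comparison asks how the transcriptome of the embryonal carcinoma line responds.

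BRD9 carries a bromodomain, the fold that reads acetylated lysines on histone tails, and is a defining subunit of the non-canonical BAF complex, an ATP-driven chromatin remodeller. Its close relative BRD7 belongs to the PBAF complex. I-BRD9 is a small molecule built to occupy the bromodomain of BRD9, so it acts on the protein and need not alter the BRD9 transcript. Embryonal carcinoma cells are the pluripotent stem cells of non-seminomatous germ cell tumours: they express POU5F1 and NANOG, signal through NODAL and FGF, and can turn into embryonic and extra-embryonic cell types.

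Each library held 7290335 to 9600293 estimated counts. CPM here are counts of 3′ ends scaled to library size with TMM factors, and they are not divided by transcript length; 3 counts corresponded to 0.301 to 0.409 CPM on this scale. The 12 embryonal carcinoma markers summed to 3689 to 3769 CPM in the DMSO libraries and to 1808 to 1914 CPM in the I-BRD9 libraries; 10 of the 12 were called lower. Of 10 seminoma markers, which summed to 241 to 318 CPM in DMSO and 187 to 195 CPM in I-BRD9, 9 were tested, 3 were called lower (ALPL, PRDM1 and SPRY4) and 1 higher (CXCR4); TFAP2C held most of the counts, and SOX17 and PRAME had 2 counts each in DMSO and 0 in I-BRD9. Of 8 stromal markers, at 229 to 254 CPM in DMSO and 138 to 158 CPM in I-BRD9 and mostly THY1, 4 were tested and THY1 and COL1A2 were lower, while DCN, FAP and LUM had 0 counts in all 6 libraries. Of 8 blood markers, at 1.36 to 2.19 CPM in DMSO and 3.21 to 5.41 CPM in I-BRD9, 2 were tested and CD68 was higher (17 counts in DMSO, 80.3 in I-BRD9), while CD3E and HBB had 0 counts. The part of other cell types in the results was not tested. The first principal component, with 57.1% of the variance, parted the treatments. The second, with 13.9%, had I-BRD9 replicate 1 and DMSO replicate 3 at the same end, so results that lean on these libraries are given with and without them.

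The BRD9 transcript itself was at 109, 100.2 and 123 CPM in the DMSO libraries and at 105, 89.6 and 83.1 CPM in the I-BRD9 libraries, so the groups overlapped. Its log2 fold change was -0.26 ± 0.09 (SE), adjusted p = 0.033 (edgeR's quasi-likelihood test with Benjamini-Hochberg adjustment, the source of all adjusted p-values below). That call was lost under 8 alternatives, such as without the second or the third I-BRD9 library, or without DMSO replicate 1 or 3, with adjusted p from 0.0645 to 0.177. BRD7 was at 328, 349.7 and 348 CPM in DMSO and 357, 339 and 307 CPM in I-BRD9, a log2 fold change of -0.03 ± 0.07 (SE).

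The response reached across the transcriptome in both directions. At an adjusted p below 0.05, 5739 genes (36.8% of those tested) were called, 2837 (18.2%) higher and 2902 (18.6%) lower with I-BRD9. Of these, 1076 (6.89% of tested genes) were higher and 865 (5.54%) lower by at least 2-fold. For 7235 genes (46.3%) the 3 treated libraries lay wholly above or below the 3 controls, and 5446 genes were both called and separated in this way. The median log2 fold change over all tested genes was 0.00. The estimated counts of 1221 called genes (21.3%) were not whole in some library, so their reads were shared with other genes and their levels are less certain. No gene among the 179 with at most 3 counts in each group was called. Of the called genes 8 had fewer than 10 counts over the 6 libraries, and all 8 lost the call under some alternative.

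**Figure D1:**
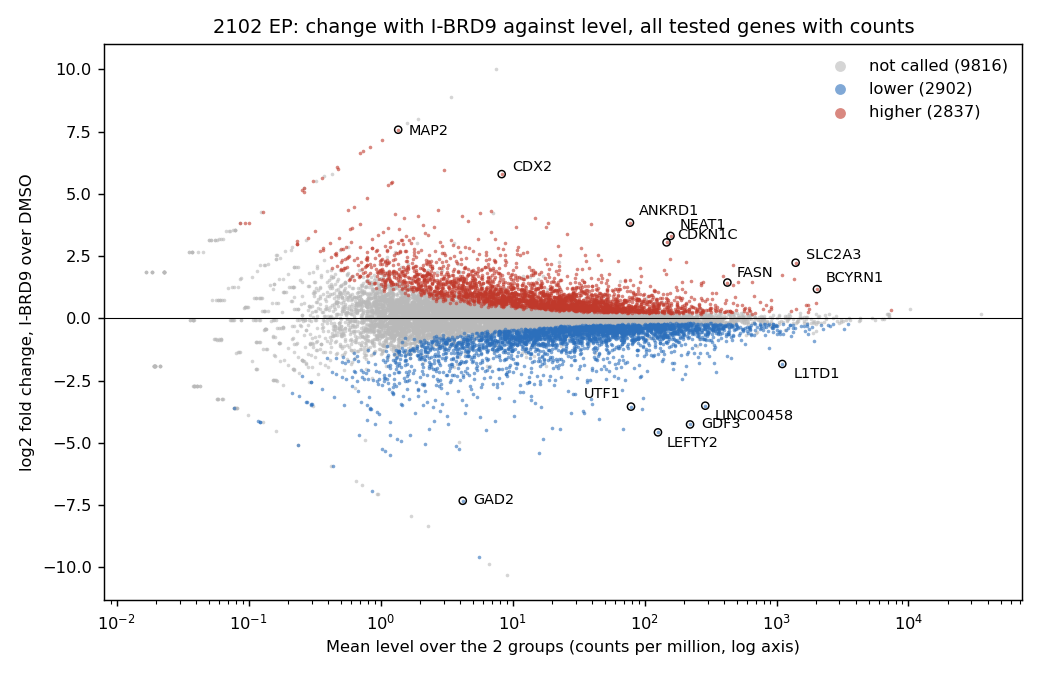
Log2 fold change of I-BRD9 over DMSO (vertical axis) against the mean level of both groups in CPM (horizontal log axis) for the tested genes with counts in 2102 EP; red points are called higher and blue points lower, and circles mark named genes. Large changes are spread over a wide range of levels, with LINC00458, LEFTY2 and GDF3 far below 0 and SLC2A3, CDKN1C and ANKRD1 far above it.

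The direction of change depended on how abundant a gene was. Among 1271 genes below 1 CPM, 8.34% were called higher and 5.35% lower. Between 10 and 30 CPM, with 3479 genes, the shares were 22% and 19.5%. Above 300 CPM, with 537 genes, 12.7% were higher and 36.1% lower, and between 100 and 300 CPM, with 1279 genes, 16.7% and 36.8%. Between 30 and 100 CPM 21.8% were higher and 26.2% lower, an order that turned with upper-quartile scaling (24.4% and 23.4%) and total-count scaling (25.8% and 21.2%). The genes called higher gained 60178 CPM in all, and those called lower fell by 101780 CPM. TMM factors were 1.008, 1.042 and 1.048 in the I-BRD9 libraries and 0.996, 0.979 and 0.989 in the DMSO libraries. CPM therefore summed to less in the treated libraries, and the gap between gain and loss depends on this scaling. The 149 genes with the largest gains held 50% of the gain, and 238 genes held 50% of the loss.

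The largest single gains and losses in CPM came from a mixed set of genes. SLC2A3, a glucose transporter of neurons and embryonic cells, went from 489, 499 and 481 CPM to 2204, 2364 and 2339 CPM, with the groups far apart (log2 fold change 2.23 ± 0.07 (SE), adjusted p = 1.1e-15). Its counts were shared in 6 of 6 libraries, and its neighbour SLC2A14 is a near copy. PEG10, an imprinted gene derived from a retrotransposon, rose from 176, 162 and 188 to 820.1, 732 and 753 CPM. FTL, the ferritin light chain that stores iron, rose from 357, 343 and 337 to 1005, 964 and 924 CPM. On the other side L1TD1, an RNA-binding protein of pluripotent cells derived from a LINE-1 element, fell from 1687, 1715 and 1778 to 502, 502 and 450.4 CPM (-1.83 ± 0.08 (SE)). The chromatin proteins HMGB1 (-0.90) and CBX3 (-0.57), the tubulin TUBB (-0.64) and the glycolytic enzyme ENO1 (-0.44) lost less in relative terms but much in CPM. HMGB1 and CBX3 shared reads in 6 of 6 libraries, and TUBB and ENO1 in 1 and 2.

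A small number of genes had almost no counts in 1 group. Of the called genes, 45 had at most 3 counts over the DMSO libraries and 41 had at most 3 over the I-BRD9 libraries. MAP2, a microtubule-associated protein of neuronal dendrites, had 0 counts over the 3 DMSO libraries and 72 over the 3 I-BRD9 libraries, at least 22.9-fold higher against a floor of 3 counts over the group. ABCB1, the drug efflux pump, went from 1 to 60 counts (CPM ratio 57.2, 95% counting interval 9.88 to 2296), and SMOC1, a secreted calcium-binding protein, from 3 to 64 (20.3, 6.65 to 101). GAD2, which makes the transmitter GABA, went the other way, from 211 counts to 1 (221, 39.3 to 8786). CRYGB, a lens crystallin, went from 65 counts to 2, and RIT2, a neuronal RAS-like GTPase, from 53 to 1. ENSG00000285901, singled out after its values were seen, had 280 counts in DMSO and 0 in I-BRD9, at least 97.9-fold lower. It spans chr12:4273762-4405490 (GENCODE 29 on GRCh38) and overlaps CCND2 on the same strand, whose reads it shares in 3 libraries; CCND2 was at 200.1, 191 and 184 CPM in DMSO and 159, 174 and 169.6 CPM in I-BRD9 and was not called. The intervals cover counting error only, and these genes lie near the limit of what the depth can show.

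Among the signalling lists, the FGF list had the largest share of genes called in 1 direction. FGFs bind receptor tyrosine kinases and activate ERK, which in turn induces ETS factors of the PEA3 group and feedback inhibitors such as Sprouty proteins and dual-specificity phosphatases. Of 30 tested ligands, receptors and feedback genes, 20 were lower and 2 higher, with a median log2 fold change of -1.09. Among the ligands, FGF4, an autocrine factor of pluripotent cells, was at 25.7, 28.2 and 27.7 CPM in DMSO and 1.64, 2.7 and 3.24 CPM in I-BRD9, with no overlap (-3.40 ± 0.24 (SE), adjusted p = 1.9e-10). FGF19 fell from 12.2, 14 and 15.6 to 0.545, 1.0 and 0.781 CPM, and FGF2 by 1.52 on the log2 scale. FGF18 went against the list and rose from 12.8, 12.3 and 11.4 to 37, 37.4 and 43.1 CPM. Among the receptors FGFR2 fell (-1.42), with smaller falls of FGFR4 (-0.61) and FGFR3 (-0.42). Each PEA3 factor fell: ETV4 from 153, 154 and 159.9 to 32.3, 31.3 and 29.8 CPM, ETV1 (-2.46) and ETV5 (-1.91). So did the inhibitors SPRY4 (-2.26), SPRY2 (-1.17), SPRY1 (-0.95), DUSP7 (-2.15) and IL17RD (-1.56).

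Other signalling lists split. Of 49 genes of the NODAL, TGF-beta and BMP pathways, 16 were lower and 11 higher (median -0.13); the NODAL antagonists LEFTY2, at 225, 269 and 234 CPM in DMSO and 9.95, 12.3 and 8.03 CPM in I-BRD9, and LEFTY1 (-3.81) were among the strongest falls of the data set, and INHBE, an inhibin beta chain, fell from 7.78, 7.07 and 6.78 to 0.136, 0.10 and 0.335 CPM. Of 27 WNT ligands and receptors, 5 were higher and 6 lower (median 0.00), and of 18 WNT antagonists and targets, 7 and 3. WLS, the carrier that takes WNT proteins to the cell surface, rose from 2.75, 2.24 and 2.94 to 31.1, 31.4 and 37.3 CPM (3.65 ± 0.15 (SE), adjusted p = 3.9e-14), while the ligand WNT3 fell from 39.4, 36.5 and 30.6 to 3.41, 7.31 and 5.58 CPM and the receptor FZD5 from 50.8, 58 and 55 to 15.7, 14.6 and 14.9 CPM. SFRP1 and SFRP2, secreted WNT antagonists, moved apart: SFRP1 rose (1.74) and SFRP2 fell (-1.88). Of 45 cytokine and chemokine genes and receptors, 13 were higher and 9 lower. IL23A, a subunit of interleukin 23, fell from 18.9, 21.3 and 17.5 to 1.09, 1.2 and 1.45 CPM, whereas the receptor chains IL11RA (2.78) and IL13RA1 (1.93) rose.

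**Figure D2:**
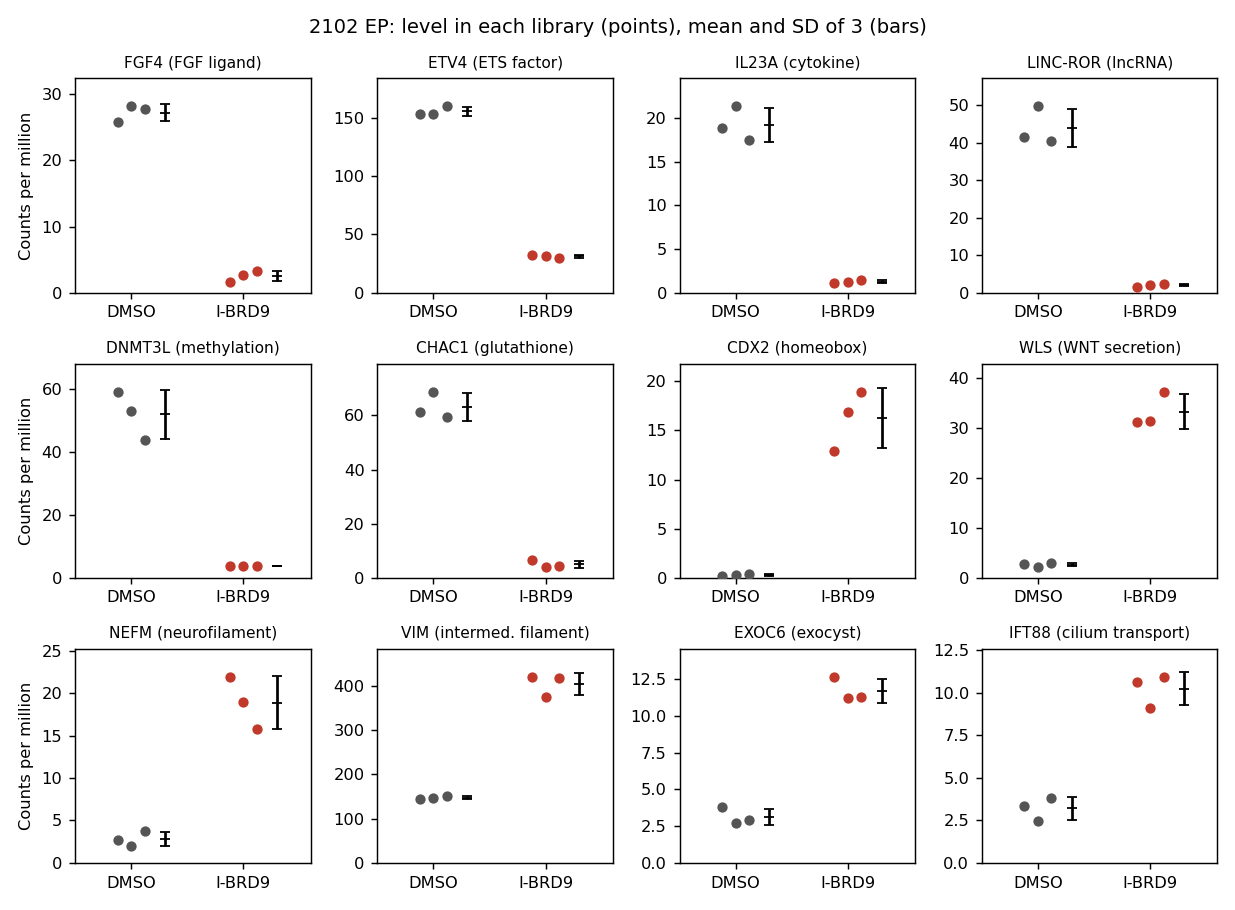
Level in CPM (vertical axes, each starting at 0) of 12 genes in each of the 3 DMSO and 3 I-BRD9 libraries of 2102 EP (points), with the mean and SD of 3 libraries (bars). FGF4, ETV4, IL23A, LINC-ROR, DNMT3L and CHAC1 were lower and the other 6 genes higher in each treated library than in any control.

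Genes of naive and cleavage-stage cells and long non-coding RNAs of pluripotent cells fell together. Of 16 tested naive and cleavage-stage genes 11 were lower and 2 higher (median -1.64). DNMT3L, the cofactor of de novo DNA methylation, was at 59.3, 52.9 and 43.7 CPM in DMSO and 3.68, 3.71 and 3.68 CPM in I-BRD9 (-3.81 ± 0.20 (SE)). UTF1, a chromatin factor of pluripotent cells, went from 168, 128 and 141 to 13.4, 13.4 and 10.6 CPM. KHDC3L, of the maternal complex of the early embryo, fell from 2.52, 3.3 and 2.56 to 0.409, 0.601 and 0.446 CPM, and the maternal-effect gene NLRP7 by 1.77 on the log2 scale. Of 18 long non-coding RNAs 12 were lower and 2 higher (median -1.05). LINC00458 was at 537, 514 and 539.7 CPM in DMSO and 48.7, 47 and 44.3 CPM in I-BRD9, LINC-ROR at 41.4, 49.6 and 40.5 CPM in DMSO and 1.64, 2.0 and 2.34 in I-BRD9, and LINC01356 at 62.6, 61.1 and 63.2 CPM in DMSO and 12.1, 8.51 and 11.4 in I-BRD9. The 2 that rose, NEAT1 and MALAT1, are nuclear RNAs of most cell types rather than of pluripotent cells.

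Of 23 tested genes that add, keep, read or remove DNA methylation 11 were lower and 2 higher (median -0.30). Besides DNMT3L the lower members included the de novo enzymes DNMT3B, from 534, 507 and 521 to 168, 138 and 140.0 CPM, and DNMT3A, from 188, 192 and 209.5 to 93.5, 74.7 and 69.8 CPM, the remodeller HELLS (-1.16), UHRF1 (-0.67), which guides maintenance methylation, and the demethylase TET1 (-0.83). DPPA4 (-2.25) and DPPA2 (-1.02), partner proteins of bivalent promoters, fell as well. Of 473 tested ZNF genes, mostly zinc finger repressors, 99 (20.9%) were lower and 38 (8.03%) higher, against 18.6% and 18.2% over all tested genes.

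Amnion and surface ectoderm genes moved the other way, with 14 of 24 higher and 1 lower (median 0.81). CDX2, a homeobox factor of trophoblast and posterior embryo, was at 0.229, 0.236 and 0.384 CPM in DMSO and 13, 16.8 and 19 CPM in I-BRD9 (5.79 ± 0.36 (SE), adjusted p = 2.6e-11). HAND1, a bHLH factor of amnion, trophoblast and heart, rose from 4.8, 6.13 and 4.99 to 80.3, 68.5 and 72 CPM, MSX1 from 0.915, 0.236 and 0.511 to 11.3, 8.01 and 12.8 CPM and TBX3 from 11.7, 12.5 and 14.8 to 71.3, 72.6 and 81.2 CPM. DLX3 (1.67), GATA2 (1.35), IGFBP3 (1.51) and the keratins KRT19 (1.36) and KRT8 (1.01) rose less. SOX, FOX and ZIC factors leaned down, 18 lower and 8 higher of 40. SOX3, an early neural factor, was an exception and rose from 7.09, 6.84 and 6.01 to 34.5, 42.7 and 40.3 CPM, while SOX4 fell from 651, 677 and 710.3 to 236, 221 and 216 CPM and FOXH1, the DNA-binding partner of NODAL-activated SMADs, from 66.6, 78.8 and 86.9 to 25.8, 18.9 and 17.7 CPM.

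Structural genes of neurons also rose. Of 50 cytoskeletal, adhesion and synapse genes 25 were higher and 9 lower (median 0.75). NEFM, a neurofilament chain, went from 2.75, 2.0 and 3.71 to 22, 18.9 and 15.7 CPM, NCAM1, a neural adhesion molecule, from 2.86, 1.89 and 2.56 to 13.1, 11.7 and 11.7 CPM, and MAPT, the axonal protein tau, rose by 1.51 on the log2 scale. The neuronal tubulin TUBB3 rose from 77.3, 71.4 and 65.6 to 355, 302 and 368 CPM and TUBA1A from 62.1, 59.4 and 54.2 to 208, 233 and 233 CPM, both with shared reads in 6 of 6 libraries. The abundant tubulin TUBB fell from 2077, 2116 and 2116 to 1374, 1384 and 1290 CPM. Among the members that fell were DPYSL3 (-1.79), CRMP1 (-1.25) and DPYSL2 (-0.68), phosphoproteins of growing axons from a single family. VIM, the intermediate filament of mesenchymal and neural progenitor cells, rose from 143, 148 and 152 to 421, 376 and 417 CPM. Of 27 collagen chains 8 were higher and 6 lower, with COL2A1, the cartilage collagen, going from 0.343, 0.589 and 0.384 to 8.73, 8.31 and 6.58 CPM.

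Outside the developmental genes, a set of lists for membrane traffic and the cilium showed rises with few falls. These 4 lists were assembled after values had been seen, so their counts describe the choice as well as the response. Of 84 genes for transport along the cilium and for its base 34 were higher and 4 lower (median 0.35). Intraflagellar transport carries cargo along the cilium with a kinesin II motor outward and a dynein 2 motor back. IFT88, a core carrier subunit, was at 3.32, 2.48 and 3.84 CPM in DMSO and 10.6, 9.12 and 10.9 CPM in I-BRD9 (1.67 ± 0.24 (SE)), IFT140 rose by 1.47, and the motor subunits KIF3A (0.74), KIF3B (0.65) and KIFAP3 (1.01) all rose. CEP290 (1.11) and INVS (1.06), of the zone at the cilium base, rose too. Among the falls was SPAG5 (-0.49), a spindle protein despite its place in the list.

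Syntaxins and other SNARE proteins, which fuse vesicles with their target membrane, had 13 of 39 higher and 1 lower (median 0.09). STX17, which acts in autophagosome fusion, went from 33.7, 35.7 and 37.6 to 60.3, 57.3 and 61.4 CPM and STX12, an endosomal syntaxin, from 15.4, 11 and 14.6 to 20.7, 26.4 and 26.3 CPM. Tethers and DENN domain proteins, which bring vesicles to a membrane and activate RAB GTPases, had 18 of 57 higher and 2 lower (median 0.21). EXOC6, a subunit of the exocyst, went from 3.78, 2.71 and 2.94 to 12.7, 11.2 and 11.3 CPM (1.89 ± 0.19 (SE)), and DENND4A from 1.94, 2.71 and 4.86 to 11.5, 8.61 and 9.59 CPM. Enzymes that start O-linked glycans and trim N-linked glycans had 11 of 25 higher and 2 lower (median 0.36), GALNT12 (1.49) and MAN1A1 (1.73) among them, whereas MAN1C1 fell (-1.98). The coat and translocon genes of the early secretory pathway did not share this lean, with 5 higher and 12 lower of 54, and without DMSO replicate 2 these counts were 0 and 7. Without I-BRD9 replicate 1 the lower count was 7 as well, and the higher count was 3 without I-BRD9 replicate 3, as it was when DMSO library 1 or 3 was left out.

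Of 52 V-ATPase and autophagy genes 22 were higher and 7 lower (median 0.22). The pump subunits ATP6V0A1, from 27.8, 29.5 and 27.7 to 68.6, 51.4 and 47.3 CPM, and ATP6V0E2 (1.30) rose, as did WIPI1 (1.95), which marks forming autophagosomes, the autophagy receptor OPTN, from 17.7, 21.5 and 16.5 to 57.8, 47.9 and 47.3 CPM, and the kinase ULK2 (1.33); ATG3, which conjugates LC3 to lipid, fell (-0.95). Of 53 fatty acid and lipid droplet genes 20 were higher and 6 lower (median 0.19). FASN, fatty acid synthase, rose by 1.44 on the log2 scale, and the desaturase FADS1 went from 105, 126 and 122 to 387, 336 and 284 CPM. The lipid droplet lipase PNPLA2 went from 23.1, 23 and 24.4 to 78.4, 59.7 and 77.2 CPM, and the triglyceride-forming enzymes DGAT1 (1.32) and DGAT2 (1.78) rose. PLIN2, the coat protein of lipid droplets (-1.04), and SREBF1, the regulator of fatty acid synthesis genes (-1.02), fell, as did CPT1A (-0.92), which admits fatty acids to mitochondria. Of 241 solute carriers 59 (24.5%) were higher and 43 (17.8%) lower; SLC6A3, the dopamine transporter, went from 0.343, 0.589 and 0.767 to 13.4, 6.31 and 6.14 CPM and SLC7A11, the cystine importer, from 39.1, 53.2 and 47.9 to 6.82, 6.01 and 5.69 CPM.

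In lists of proteasome, chaperonin, splicing, ribosome and nuclear pore genes many members went down by small amounts. Of all tested genes 18.6% were called lower, but 36.8% of those between 100 and 300 CPM and 36.1% of those above 300 CPM. None of 34 proteasome subunits was higher and 20 were lower (median -0.32): PSMC4, an ATPase of the regulatory particle, was at 339, 363 and 355 CPM in DMSO and 215, 199 and 186 CPM in I-BRD9 (-0.82 ± 0.07 (SE)), and PSMC6 at 186, 188 and 172 CPM in DMSO and 99.7, 124 and 119 in I-BRD9. Of 15 chaperonin and prefoldin genes 10 were lower and 0 higher (median -0.34), such as CCT4 (-0.59) and CCT5 (-0.39), subunits of the ring that folds actin and tubulin. With the 6 libraries of 2102 EP alone and the replicate number as a block these counts were 13 and 6. Of 57 splicing proteins 31 were lower and 1 higher (median -0.33), HNRNPD falling from 558, 525 and 545 to 301, 276 and 283 CPM and ESRP1, an epithelial splicing regulator, from 96.6, 102 and 90.8 to 39.5, 42.5 and 39.6 CPM. Of 76 ribosome biogenesis genes 30 (39.5%) were lower and 1 higher (median -0.20). For 43 nucleoporins and karyopherins the counts were 18 (41.9%) and 3 (median -0.22), and for 78 mitochondrial ribosomal proteins 28 (35.9%) and 9 (median -0.19). These shares lay near those of all tested genes above 100 CPM. The proteasome (58.8%), chaperonin (66.7%) and splicing (54.4%) shares lay above them. The part of level in these counts was not tested. MRPL41 was among the exceptions and rose from 114, 131 and 127 to 232, 201 and 194 CPM.

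Cytosolic ribosomal proteins and respiratory chain subunits gave counts that depended on the libraries. Of 86 cytosolic ribosomal protein genes 21 (24.4%) were lower and 3 (3.49%) higher, against 18.6% and 18.2% over all tested genes. But 6 were lower without DMSO replicate 2, 9 without I-BRD9 replicate 1 and 12 without DMSO replicate 1, and 67 of the 86 shared reads. Together they took 12.1%, 13.4% and 11.9% of counts in DMSO replicates 1 to 3. In I-BRD9 replicates 1 to 3 the shares were 11.8%, 12.6% and 12.1% (exact permutation test over the 6 libraries, two-sided p = 0.6). Of 82 nuclear-encoded respiratory chain and ATP synthase subunits 16 (19.5%) were lower, near the share over all tested genes, and 5 (6.1%) higher. The lower count was 8 without DMSO replicate 2 and 10 without I-BRD9 replicate 1. The higher count was 3 without I-BRD9 replicate 3 or DMSO replicate 3. Among members of at least 10 CPM, I-BRD9 replicate 1 was the lowest treated library for 45 of 80 respiratory genes (56.2%) and 42 of 84 ribosomal genes, against 34.7% of all tested genes of that level. DMSO replicate 3 was the lowest control library for 53 of 80 (66.2%) and 52 of 84 (61.9%), against 37.4%. The part of these libraries in the counts was not tested beyond leaving each out.

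**Figure D3:**
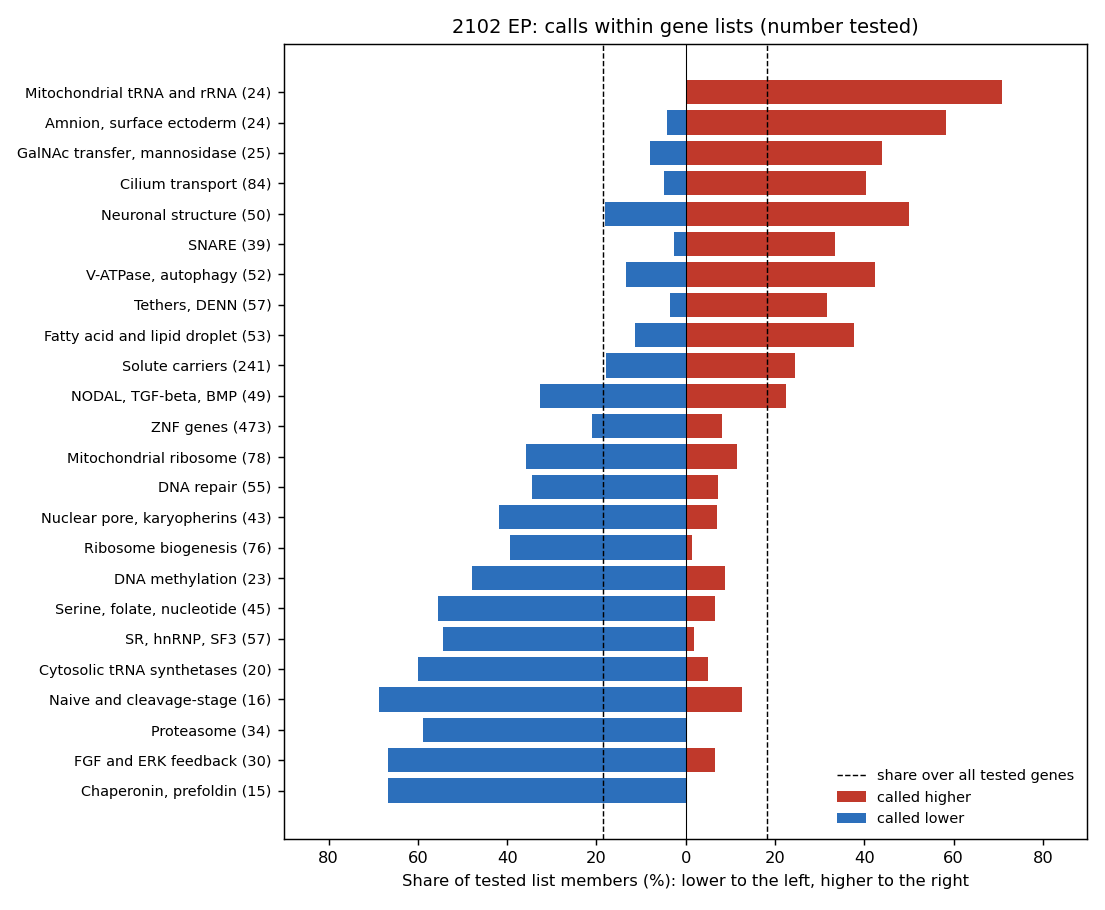
Share of tested members called higher (red, to the right) and lower (blue, to the left) with I-BRD9 in 24 gene lists, with the number tested in brackets; dashed lines mark the shares over all tested genes, 18.2% and 18.6%. Among the lists drawn, the naive, chaperonin and FGF lists have the longest bars on the lower side, and the mitochondrial RNA and amnion lists on the higher side. The cilium, SNARE, tether, GalNAc transfer and mitochondrial RNA lists were assembled after values had been seen. The dashed lines take no account of level: between 100 and 300 CPM 16.7% of tested genes were higher and 36.8% lower.

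Enzymes that supply amino acids and nucleotides fell. Of 45 serine, folate and nucleotide synthesis genes 25 were lower and 3 higher (median -0.34), with PSAT1, of serine synthesis, going from 184, 186 and 140.0 to 49.2, 67.8 and 62.6 CPM and CBS, of the transsulfuration pathway, from 183, 191 and 177 to 76.6, 69.5 and 57.6 CPM. Of 20 cytosolic aminoacyl-tRNA synthetases, which load tRNAs with amino acids, 12 were lower and 1 higher (median -0.31). WARS1 was at 115, 113 and 116 CPM in DMSO and 66, 64.3 and 63.8 CPM in I-BRD9, AARS1 at 245, 249 and 243 CPM in DMSO and 164, 143 and 133 in I-BRD9, and NARS1 at 371, 411 and 407 CPM in DMSO and 274, 248 and 249 in I-BRD9; in each the groups stood apart.

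ATF4, the transcription factor of amino acid shortage, is known to act through an element with the letters TGATGCAA, and promoter sequences were searched for it on both strands. The windows came from the RefSeq promoter table on GRCh38.p14, 300 bases long with 250 before and 50 after the gene start, and 11221 tested genes were matched by symbol. The letters were in 52 of these windows (0.463%) and in 0.923% of all 27305 promoters in the table. Of those 52 genes 23 (44.2%) were lower and 5 (9.62%) higher, with a median log2 fold change of -0.49. Of all 11221 genes with a window 2232 were lower and 2119 higher, and over all tested genes the shares were 18.6% and 18.2%. Of 16 synthetases with a window, 6 (37.5%) held the letters and each of those 6 was lower, with a median of -0.69. The 6 are part of the 23 lower genes above, so they are not a separate result. Of the other 10 synthetases, 4 were lower, with a median of -0.15. ATF4 itself was at 359, 425 and 422 CPM in DMSO and 316, 277 and 252 CPM in I-BRD9 (-0.51). CHAC1, which degrades glutathione, fell from 61.3, 68.9 and 59.3 to 6.41, 4.01 and 4.35 CPM (-3.70 ± 0.17 (SE)). It and SEPHS1, a selenophosphate synthetase (-1.89), held the letters too and are part of the same 23 genes. The matches that lie fully before the gene start are shown 5′ to 3′ on the gene's strand for these 2 genes and 2 synthetases, with the element in capitals as it reads on that strand, TTGCATCA; no binding was measured. They lie at chr15:40953242-40953289, chr10:13348381-13348428, chr9:92293698-92293730 and chr16:70289666-70289713, the first on the plus strand and the others on the minus strand.
CHAC1: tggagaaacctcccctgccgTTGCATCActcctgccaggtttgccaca
SEPHS1: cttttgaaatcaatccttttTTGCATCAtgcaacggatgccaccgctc
IARS1: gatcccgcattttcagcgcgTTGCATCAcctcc
AARS1: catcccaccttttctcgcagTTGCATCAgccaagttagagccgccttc

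Promoter composition differed between the genes that fell and those that rose. The median number of CG dinucleotides per window was 21 for genes lower by at least 2-fold, 28 for genes higher by at least 2-fold and 26 over the 11221 genes with a window. Fewer than 10 were present in 25.7% of the strong falls, 13.0% of the strong rises and 11.4% of all windows. Put the other way, 11.5% of the 1282 genes with fewer than 10 fell by at least 2-fold, against 4.28% of the 9939 with 10 or more. The first share stayed between 9.98% and 11.4% and the second between 3.64% and 4.37% when single libraries were left out. Genes with few CG were also expressed at lower levels, with a median of 4.42 CPM against 18.3 CPM. Within each of 5 ranges of level the share of strong falls was higher among genes with few CG: 9.93% against 6.46% below 3 CPM, 12.7% against 4.05% between 10 and 30 CPM, and 20.3% of 64 genes against 2.32% of 1420 above 100 CPM. Strong rises had no such steady order: with few CG they were 8.46% against 13.5% below 3 CPM, 9.23% against 10.8% between 3 and 10 CPM, 5.51% against 4.81% between 10 and 30 CPM, 4.19% against 2.24% between 30 and 100 CPM and 4.69% against 1.06% above 100 CPM, and 7.33% against 6.32% over all levels. These are shares of genes and carry no test.

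**Figure D4:**
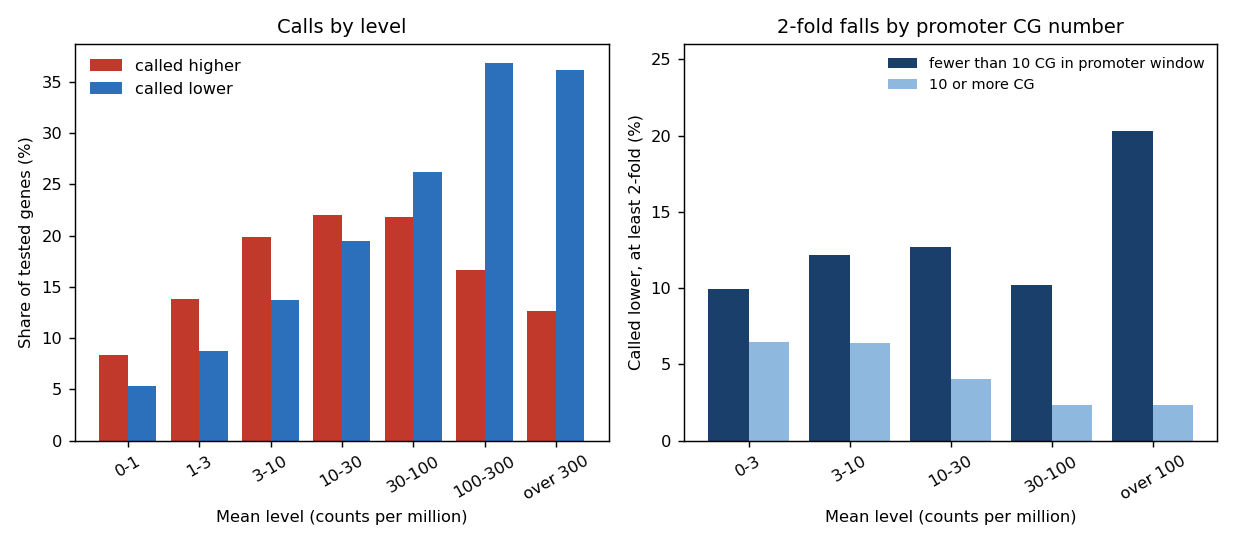
Left, share of tested genes called higher (red) and lower (blue) in 7 ranges of mean level; right, share called lower by at least 2-fold among genes with fewer than 10 CG dinucleotides in the 300-base promoter window (dark) and with 10 or more (light), in 5 ranges of level. Falls outnumbered rises above 100 CPM, and between 30 and 100 CPM with TMM scaling but not with upper-quartile or total-count scaling; the dark bars are the taller in each range.

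The contrast can be read in the sequences of 2 strong falls with few CG and 2 strong rises with many. The 250 bases before the start are given 5′ to 3′ on the gene's strand with each CG in capitals. GDF3, a ligand of the TGF-beta family that went from 369, 466 and 425 to 30.1, 19.8 and 16.5 CPM, has 0 CG in this stretch (chr12:7695776-7696025, minus strand). TMT1A, a thiol methyltransferase that went from 73.6, 84.2 and 61.4 to 5.73, 9.22 and 4.91 CPM, has 3 (chr12:50924765-50925014, plus strand). INSIG1, which holds back sterol synthesis and went from 57.4, 48 and 47.4 to 230.2, 266 and 292 CPM, has 41 (chr7:155297628-155297877, plus strand). MSX1 has 24 (chr4:4859415-4859664, plus strand).
GDF3: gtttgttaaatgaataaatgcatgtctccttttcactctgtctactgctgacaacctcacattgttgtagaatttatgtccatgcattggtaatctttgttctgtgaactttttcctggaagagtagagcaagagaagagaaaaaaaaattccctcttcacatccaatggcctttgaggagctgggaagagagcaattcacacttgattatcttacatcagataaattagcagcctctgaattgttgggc
TMT1A: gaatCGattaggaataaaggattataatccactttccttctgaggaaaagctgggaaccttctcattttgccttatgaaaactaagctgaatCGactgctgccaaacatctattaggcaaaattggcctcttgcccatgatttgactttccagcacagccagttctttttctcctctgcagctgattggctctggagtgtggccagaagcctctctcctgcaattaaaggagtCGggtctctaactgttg
INSIG1: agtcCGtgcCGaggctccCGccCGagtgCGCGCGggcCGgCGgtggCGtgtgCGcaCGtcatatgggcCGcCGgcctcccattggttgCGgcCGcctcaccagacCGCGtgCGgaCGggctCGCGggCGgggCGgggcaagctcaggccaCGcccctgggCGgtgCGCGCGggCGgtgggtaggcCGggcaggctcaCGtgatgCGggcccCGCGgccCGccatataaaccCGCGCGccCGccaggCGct
MSX1: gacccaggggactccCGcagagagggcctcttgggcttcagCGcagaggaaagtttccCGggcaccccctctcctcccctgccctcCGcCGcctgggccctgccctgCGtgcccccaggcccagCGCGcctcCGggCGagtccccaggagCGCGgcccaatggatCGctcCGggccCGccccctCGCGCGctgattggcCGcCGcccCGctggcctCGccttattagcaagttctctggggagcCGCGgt

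Counterexamples exist on both sides. ANKRD1, a stress-responsive repeat protein that rose from 7.09, 12.5 and 10.7 to 149.8, 146 and 138 CPM, has 5 CG in its 300-base window, and UTF1, which fell, has 39. Of 14 motifs searched, the 4 given next were chosen after their values were seen. The ETS letters CCGGAAGT, common in promoters of housekeeping genes, were in 2.77% of strong rises and 2.97% of strong falls, against 8.55% of the windows of tested genes and 4.44% of all 27305 promoters in the table. The AP-1 letters TGANTCA were in 7.17% of strong falls and 4.57% of strong rises, against 4.33% of tested and 7.76% of all windows. The SOX letters CATTGTT were in 3.85% and 1.66%, against 1.75% and 3.38%. The cell cycle letters TTTGAA were in 12.9% of strong falls and 9.14% of strong rises, against 9.62% of tested and 15.4% of all windows. Among all genes called lower the share was 12.6%, and among those called higher 7.83%. Median GC content was 63% in windows of strong falls, 68.7% in those of strong rises and 65.3% over tested genes. The part of base composition in the motif shares was not tested. The motifs were all sought on both strands. AP-1 and the cyclic AMP element share bases and can overlap.

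The classes of non-messenger RNA were set against the shares over all tested genes, 18.2% higher and 18.6% lower. Of 570 long intergenic non-coding RNAs (GENCODE lincRNA) 88 (15.4%) were lower and 63 (11.1%) higher. Of 138 processed transcripts 26 (18.8%) were lower and 20 (14.5%) higher, and of 493 antisense genes 43 (8.72%) were lower and 61 (12.4%) higher. The shares of these classes thus lay near or below those over all tested genes. Of 22 tested mitochondrial tRNAs 17 were higher and 0 lower, and the library kit primes on poly(A) tails. The list of mitochondrial tRNAs and rRNAs was assembled after values had been seen. MT-TF, the tRNA of phenylalanine, was at 494, 452 and 578 CPM in DMSO and 1748, 1426 and 1895 CPM in I-BRD9 (1.73 ± 0.14 (SE)), and MT-TN at 1330, 1235 and 1562 CPM in DMSO and 2028, 1729 and 2188 in I-BRD9. Mitochondrial tRNAs made up 0.332% ± 0.0469 (SD, n = 3) of all counts in the DMSO libraries and 0.627% ± 0.0933 (SD, n = 3) in the I-BRD9 libraries (exact permutation test over the 6 libraries, two-sided p = 0.1, the smallest that 3 against 3 can give). The 13 mitochondrial messenger RNAs had 6 higher and 0 lower: MT-ND6, the only one on the light strand, went from 271, 226 and 292 to 654, 665 and 690.1 CPM, and MT-CO1 from 1416, 1309 and 1511 to 2138, 1933 and 2029 CPM, both with shared reads. Of 29 small nucleolar and Cajal body RNAs 11 were higher and 0 lower (7 higher without DMSO replicate 1), SCARNA20 (3.62) and SNORA19 (3.48) among them. This list was assembled after values had been seen. SCARNA20 had 2 counts over the DMSO libraries and 30 over the I-BRD9 libraries, and 5 of the 29 reached a mean of 10 CPM. This class took 0.0367% ± 0.0054 (SD, n = 3) of counts in DMSO and 0.0462% ± 0.0059 (SD, n = 3) in I-BRD9, with overlap (exact permutation p = 0.2). NEAT1, the scaffold of paraspeckles, was at 27.7, 22.5 and 36.3 CPM in DMSO and 373, 291 and 193 CPM in I-BRD9, and MALAT1, of nuclear speckles, at 698, 593 and 763 CPM in DMSO and 2415, 2018 and 1681 in I-BRD9, with shared reads in 6 of 6 libraries. NEAT1 and MALAT1 together took 0.0704% ± 0.0095 (SD, n = 3) of counts in DMSO and 0.239% ± 0.0423 (SD, n = 3) in I-BRD9 (exact permutation p = 0.1, again the smallest possible). BCYRN1, a neuronal non-coding RNA of the Alu family, went from 1007, 1290 and 1432 to 3010, 2716 and 2688 CPM; other Alu sequences could share its reads. Mitochondrial messenger RNAs took 4.73% ± 0.358 (SD, n = 3) of counts in DMSO and 5.49% ± 0.119 (SD, n = 3) in I-BRD9 (exact permutation p = 0.1), and the part of RNA quality or of mitochondrial content in these rises was not tested.

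Genes were also grouped by the letters of the symbol alone, with no knowledge of function. Stems such as PSMD, PSMA, CCT, SRSF, NUP, STX and IFT hold genes of lists described above, so their counts are not separate results. Of 240 symbol stems with at least 8 tested genes, 37 had no gene called higher and 29 none called lower. Over all tested genes 18.2% were called higher and 18.6% lower, so a small stem can lack calls in 1 direction. No test was made of the number of such stems. At the low end were the metallothioneins (6 of 9 lower), PSMD (9 of 14), PSMA (5 of 8), CCT (5 of 8), SRSF splicing factors (7 of 12), ARID chromatin factors (5 of 9), UTP (6 of 11) and NUP (12 of 23), each with 0 higher. At the high end were BTBD (5 of 8 higher, 0 lower), STX (8 of 14, 0 lower), IFT (9 of 18, 0 lower), HERC (4 of 8, 0 lower), TMED cargo receptors (4 of 9, 0 lower), ADAM proteases (4 of 9, 0 lower) and the GATA stem (5 of 8, 1 lower). Besides GATA factors this last stem takes in antisense genes such as GATA2-AS1, which was among the rises. Members of a stem often share sequence or an ancestor and are not independent.

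Called genes of the same direction also lay side by side. Counting neighbours among tested genes, 67 runs of at least 4 called genes in 1 direction were found, of which 2 were on the mitochondrial genome. The longest on a nuclear chromosome had 7 genes lower, from ANP32E to TARS2 at chr1:150218417-150507609, with log2 fold changes from -1.59 (CA14) to -0.32 (RPRD2). A run at chr6:73353062-73452276 joined the early embryo genes DPPA5, KHDC3L and OOEP to DDX43 and CGAS (-1.61), the sensor of cytosolic DNA, all lower. DPPA5, OOEP and DDX43 lost their calls under some alternatives, as did CA14, RPRD2 and TARS2 of the run on chromosome 1. Runs of rises included MICAL2 (1.61), PARVA (0.88), TEAD1 (0.53), BMAL1 (1.53) and BTBD10 (0.44) at chr11:12094008-13463297, and PITX1 (1.38), MACROH2A1 (1.08), CXCL14 (0.75) and TGFBI (2.36) at chr5:135027735-136063818. With 36.8% of all tested genes called, no test was made of the number of runs. Over whole chromosomes the shares called higher ran from 13.2% (chromosome 13) to 22.2% (chromosome 15) among the autosomes and those called lower from 13.8% (chromosome 22) to 23.3% (chromosome 12).

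The response of 2102 EP was set beside that of TCam-2. The controls of the lines are separate libraries, so the values side by side share no samples. Of the 2837 genes higher in 2102 EP, 1289 (45.4%) were also called higher in TCam-2 and 142 (5.01%) lower; of the 2902 lower genes, 1328 (45.8%) were also lower and 131 (4.51%) higher. Over all tested genes 15.3% were called higher in TCam-2 and 16.5% lower. A test of the difference itself called 2043 genes (13.1% of those tested). Among the genes higher in 2102 EP it called 669 (23.6%), and among those lower 749 (25.8%). The rises of CDX2, MSX1, UCA1, ANKRD1 and HAND1 were larger in 2102 EP: CDX2 changed by 5.79 there and by -0.92 in TCam-2, and ANKRD1 by 3.84 and 0.60 (adjusted p of the difference 3.9e-09 and 4.9e-11). Among the falls CHAC1 (-3.70 against -0.87) and LINC00458 (-3.51 against -0.66) were stronger in 2102 EP, and UTF1 (-3.54 against -5.47) was stronger in TCam-2. VIM went in opposite directions, 1.45 in 2102 EP and -2.40 in TCam-2 (adjusted p of the difference 2.6e-15), as did CXCR4, a chemokine receptor, at 1.85 and -5.05 (adjusted p 2.1e-13).

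**Figure D5:**
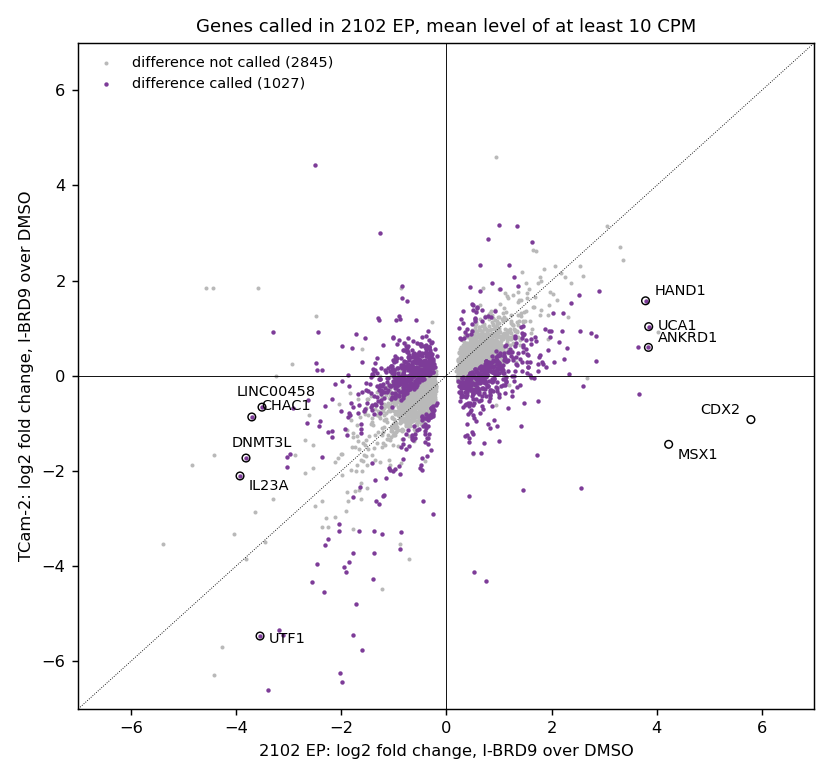
Log2 fold change with I-BRD9 in TCam-2 (vertical axis) against 2102 EP (horizontal axis) for the 3872 genes called in 2102 EP with a mean level of at least 10 CPM; purple points are the 1027 whose difference between the lines was called, the dotted line marks equal change, and circles mark 10 named genes, of which CDX2 and MSX1 lie below that level. CDX2 and MSX1 lie at the far right below 0 in TCam-2, and UTF1 lies below the dotted line.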

How the data were processed

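RNA from 2102 EP and TCam-2 cells, treated with I-BRD9 at 15 µM or with DMSO for 24 h, gave 12 libraries, 3 per group, from a 3′-end kit (Lexogen QuantSeq), per the labels' protocols. The authors deposited 1 table of estimated counts per gene from Salmon 1.9.0, per the submitters' processing notes, which also name Trim Galore, STAR 2.7.11b, R 4.2.0, DESeq2 and GRCh38; for the annotation, the strand setting and the counting options the entry is: not given in the sources used here. All 12 columns were matched to samples by their labels. The 2102 EP libraries held 7290335 to 9600293 counts, which sets a floor of 3 counts for what counts as detected.

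Estimated counts were rounded and 15614 genes kept by edgeR 4.0.16's filterByExpr over the 4 groups (R 4.3.3). TMM scaling and a robust quasi-likelihood fit of 4 group means over all 12 libraries (8 residual degrees of freedom) gave both contrasts, and Benjamini-Hochberg adjustment ran over all tested genes, with 0.05 as the threshold. The SE is the log2 fold change divided by the square root of F. The p-values measure the spread between libraries labelled biological replicates. The method was tested on simulated counts. Values not whole within 0.01 mark shared reads. Coordinates and gene types came from GENCODE 29 on GRCh38 and promoters from RefSeq on GRCh38.p14, where 14 motifs were searched. Alternatives used limma 3.58.1, DESeq2 1.42.0, other scalings and filters, blocks, and leaving out each library.

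The comparison and its 65 gene lists were chosen with earlier results of these data known, and 6 of the lists after values had been seen. Named genes were BRD9 and BRD7, the 10 largest rises and falls by fold (at least 50 CPM) and by CPM, up to 5 genes with at most 3 counts in a group each way, up to 6 called genes per list, and the 5 largest rises and falls differing between lines, all with groups that did not overlap. Genes of neighbour runs could also be named. Further list members, CCND2, ATF4 and SEPHS1 were named after their values were seen. Intervals cover counting error only.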

Additional observations from a re-analysis of the deposited data

Results flagged for a closer look

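A test of the difference between the lines called 2043 genes, and 10 of the named genes stood out by it; values below are the TCam-2 change minus the 2102 EP change on the log2 scale. For the rises of 2102 EP it was -6.71 for CDX2, -5.67 for MSX1, -3.25 for ANKRD1, -2.82 for UCA1, a long non-coding RNA, and -2.21 for HAND1. For the falls of 2102 EP it was 2.85 for LINC00458, 2.83 for CHAC1, 2.08 for DNMT3L and 1.82 for IL23A, which fell more in 2102 EP. UTF1 was the exception among these falls, with -1.93, since it fell more in TCam-2. In TCam-2 CDX2 was at 1.82 CPM with DMSO and 0.956 CPM with I-BRD9, and MSX1 at 1.43 and 0.511 CPM (means, n = 3), so their changes there rest on few counts.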

How the results depend on the processing

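Under 17 alternatives the counts of called genes stayed within 1.5 times their reported values: 2192 to 3290 higher, 2135 to 2984 lower, and 1653 to 2194 with a difference between lines, which the fits of 2102 EP alone could not give. Leaving out single libraries gave 2381 to 2706 higher and 2339 to 2650 lower. The same-numbered libraries of the groups did not deviate together (correlations -0.12, 0.096 and -0.079). Their sample descriptions carry consecutive library codes, and these correlations cannot settle whether the numbers mark pairs. With the replicate number as a block 2735 genes were higher and 2777 lower. In the 6 libraries of 2102 EP alone this block gave 2192 and 2135, and 74.1% of the reported calls were kept. Total-count scaling, added after seeing the data, gave 3290 and 2405. BRD7, not called, changed sign with upper-quartile scaling (0.0072), total-count scaling (0.030) and without I-BRD9 replicate 3 (0.030); leaving out single libraries moved it between -0.064 and 0.030, and the cause was not tested. The shares of counts, with tested genes as denominator or without a library, differed between the groups by amounts within 1 SD of those reported, taking the larger group SD. For mitochondrial messenger RNAs the difference was 0.768 percentage points, and 0.569 without DMSO replicate 2. For cytosolic ribosomal proteins it was -0.278 points and changed sign without that library (0.182). Of 388 named genes 336 kept their call under all alternatives. Where at most 4 genes of a list went against its main direction, that count moved between 0 and 7 over the alternatives, the 7 being repair genes with total-count scaling. With the 6 libraries of 2102 EP alone and the replicate number as a block, 7 NODAL, TGF-beta and BMP genes and 3 WNT ligands and receptors were higher and 3 V-ATPase and autophagy genes lower. Reads shared between similar genes and the low counts of genes below 1 CPM limit single values most.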

Other observations

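The shares over all tested genes, 18.2% higher and 18.6% lower, stand beside the counts given here. Among lists not described above, imprinted genes had 10 of 28 (35.7%) higher and 6 (21.4%) lower. The cell cycle inhibitor CDKN1C went from 31.7, 30.4 and 32.7 to 244, 259.7 and 282 CPM and the long non-coding RNA H19 fell (-1.65). Of 17 circadian clock genes 5 were higher and 1 lower, BMAL1 among the rises (1.53). Of 40 Polycomb genes 11 were higher and 15 lower, with PHC1, a subunit of repressive complex PRC1, going from 93.3, 82.3 and 85.3 to 17.7, 21.6 and 20.7 CPM and JARID2, a partner of PRC2, from 647, 597 and 632 to 225, 211 and 214 CPM. Of 74 histone-modifying enzymes 23 were lower and 7 higher, including the acetyltransferase KAT7 (-1.45), and of 55 repair genes 19 and 4. Clustered histone genes had 9 of 39 (23.1%) higher and 0 lower. Together they took 0.205% ± 0.0166 (SD, n = 3) of counts in DMSO and 0.236% ± 0.0182 (SD, n = 3) in I-BRD9. These shares overlapped between the groups (exact permutation test over the 6 libraries, two-sided p = 0.2). YAP target genes had 9 of 25 (36%) higher and 5 (20%) lower (3 lower without DMSO replicate 2).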
